A study of Mus musculus with 8 samples.

Results

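Titin is the giant spring protein of striated muscle, and its gene, Ttn, was the single row followed here among 21524 genes measured in regulatory T cells (Tregs) of the mouse spleen. Tregs hold immune responses in check, and the transcription factor Foxp3 defines them. There were 4 libraries labelled IL-2 (numbered 41 to 44) and 4 labelled control (numbered 45 to 48), all made from total RNA of Tregs sorted from spleen by flow cytometry. The series text describes an IL-2 mutein with a longer half-life, given with CTLA-4 Ig to C57BL/6 recipients of BALB/c hearts or kidneys. The labels of these 8 libraries do not give the form or dose of IL-2, what the controls received, the strain, age or genotype, whether a graft was present, or whether each library came from its own animal. Test results therefore measure only the spread between these libraries, which may be technical. Ttn was chosen because it had the largest difference toward lower values with IL-2 among well-measured genes, so its own values in this contrast are a description and carry no test.

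In muscle, titin runs from the Z-disc, where actin filaments are anchored, to the M-band, where myosin filaments are joined, and it holds myosin in place and gives the sarcomere its elasticity. It is a chain of immunoglobulin-like and fibronectin-like domains with a disordered spring region and a kinase domain near its end. Nebulin, a long actin-binding protein encoded by Neb, is the other giant of the skeletal muscle sarcomere. Titin is also made outside muscle, and an isoform has been described in human T lymphocytes, where it was linked to cell shape and trafficking. In the GENCODE M21 annotation Ttn has 25 transcripts of 271 to 106824 bases, of which 4 are longer than 80000 bases. The deposited values are per gene, so they do not say which of these transcripts the Tregs made.

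The stretch before the annotated start of Ttn is shown so that its motifs can be read beside the values of a muscle gene in T cells. The 250 bases upstream of the start, from RefSeq on GRCm38.p6, lie on the minus strand at chr2:76982548-76982797 and are printed 5′ to 3′. Capitals mark the matches to the TATA box core, the CCAAT box and the MEF2 site.
Ttn upstream: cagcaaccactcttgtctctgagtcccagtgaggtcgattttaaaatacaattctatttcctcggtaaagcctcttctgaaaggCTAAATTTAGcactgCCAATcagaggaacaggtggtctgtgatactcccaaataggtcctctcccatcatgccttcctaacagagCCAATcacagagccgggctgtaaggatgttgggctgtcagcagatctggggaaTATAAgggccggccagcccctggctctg
Both strands were searched, no 2 of the capitalised matches overlap, and the share of 32841 RefSeq promoters with a match in the same window is given for each motif. TATAA, the core of the TATA box, matched once, beginning 28 bases before the start (22.8% of promoters). CCAAT matched 2 times (33.9% of promoters). The MEF2 site, bound by myocyte enhancer factors, matched once, with the same letters on both strands, beginning 166 bases before the start (2.92% of promoters). CANNTG, the E-box core, matched once (66.2% of promoters). TTCNNNGAA, the form of site that STAT5 binds downstream of the IL-2 receptor, had 0 matches (7.02% of promoters have one), and the CArG box of serum response factor had 0 (1.47%). The files do not show from which start the Treg transcripts were made.

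Expression was deposited as variance-stabilised values on a log2 scale, from which normalised read counts were recovered. All reads below are normalised reads, and spreads are SD with n = 4 per group. Estimated depth was 4953547 to 6399418 reads per library. The 9 genes of the Treg marker list, with T cell genes such as Cd4 beside Foxp3 and Il2ra, were present in every library. Their summed reads were 43926 to 49400 in the IL-2 group and 35069 to 36374 in controls. Of the 5261 genes fitted with limma, 31.4% had an adjusted p below 0.05.

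Ttn had 16327, 11697, 16967 and 13322 reads in control libraries 45 to 48. In IL-2 libraries 41 to 44 it had 2464, 3108, 2999 and 1658 reads. Every control library lay above every IL-2 library, and the lowest control held 3.76 times the reads of the highest IL-2 library. The means were 14578 ± 2493 in controls and 2557 ± 662 with IL-2, a ratio of 5.70. The groups do not overlap in 31.5% of tested genes, and since the gene was chosen on this contrast nothing is read from its being one of them. In bulk RNA, fewer cells that express a gene and less of its RNA per cell cannot be told apart.

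Replicates of Ttn were spread widely for a gene of this depth. From counting error, a coefficient of variation of 2.03% would be met on average with IL-2 and 0.833% in controls. The observed values were 25.9% and 17.1%. Among the 1338 genes with a mean of at least 1000 reads in the IL-2 group, the median coefficient of variation was 7.91% and only 28 genes exceeded that of Ttn. In controls, 72 of 1358 such genes exceeded it, with a median of 7.66%. Library 44 was the lowest of the IL-2 group and library 46 the lowest of the controls. Within the IL-2 group the highest library held 1.87 times the reads of the lowest, and within controls 1.45 times.

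By number of reads, Ttn was one of the most abundant transcripts of the control Tregs. It took 0.261% ± 0.0446 of all recovered reads there and 0.0442% ± 0.0112 with IL-2. Its rank by reads was 8, 17, 8 and 12 in control libraries 45 to 48. In IL-2 libraries 41 to 44 it ranked 386, 282, 289 and 700. By group mean it was number 10 in controls, between Prrc2c (15151 reads), which encodes a coiled-coil protein, and Ets1 (14474 reads), a transcription factor of lymphocytes. With IL-2 it was number 359, between Wapl (2569 reads), which releases cohesin from chromatin, and Ipcef1 (2557 reads). The difference of 12021 reads between the group means was the largest loss of any gene in the table and made up 2.26% of the summed losses. The next was that of Noct, a phosphatase gene of the circadian system, with 12458 reads in controls and 7739 with IL-2.

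Rank by reads depends on length, since a long transcript gives more reads than a short one at the same number of molecules. Divided by its longest annotated transcript, Ttn had 136 ± 23.3 reads per kb in controls and 23.9 ± 6.20 with IL-2. On that scale it ranked 2284 to 3272 in control libraries and 7171 to 8498 in IL-2 libraries, among 19380 genes with a length. In controls Il2ra, the alpha chain gene of the high-affinity IL-2 receptor, had fewer reads than Ttn (6935 ± 781) but 1572 reads per kb. If the Tregs made mainly shorter transcripts of Ttn, the value per kb would be higher than given here.

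**Figure D1:**
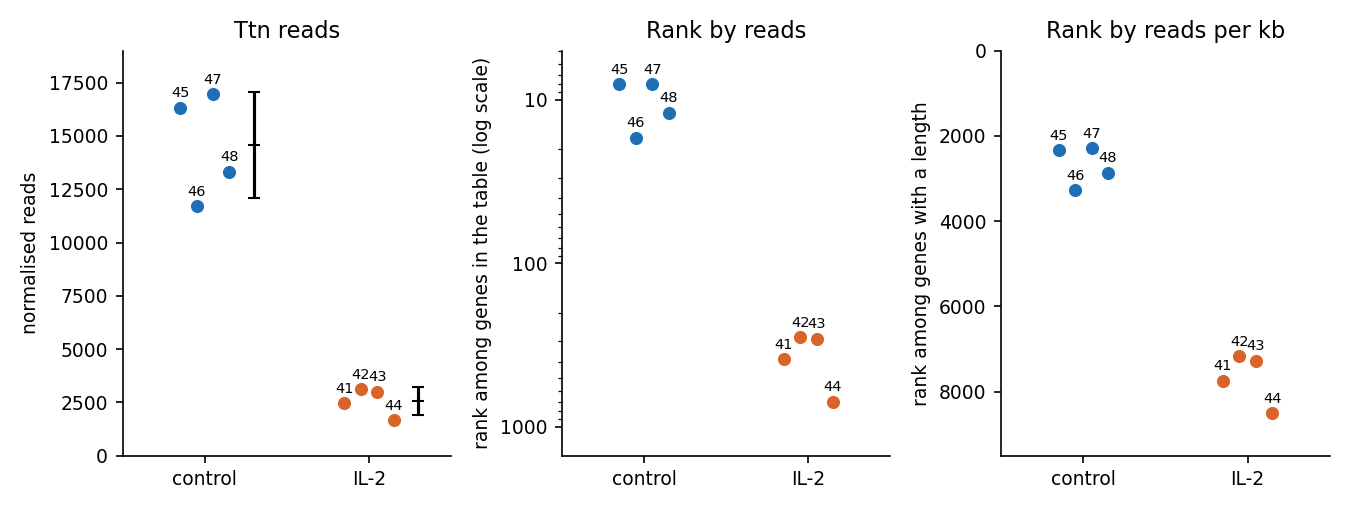
Ttn in each of the 8 libraries, labelled by replicate number. The left panel gives normalised reads with the group mean and SD as black bars, the middle panel the rank by reads on a log scale and the right panel the rank by reads per kb of longest transcript, both with rank 1 at the top. Controls lie at 11697 to 16967 reads and ranks 8 to 17, IL-2 libraries at 1658 to 3108 reads and ranks 282 to 700.

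The choice of Ttn rested on a difference of -2.22 on the deposited log2 scale among abundant genes. The next falls were sought among genes whose mean reached the median over tested genes and whose groups did not overlap. First came Rora, a nuclear receptor, at -1.10 and Tcf7, a transcription factor of resting T cells, at -1.09. Predicted genes and antigen receptor segments had been left out, and of the predicted genes Gm3095 stood at -1.33. That scale is compressed at low reads. As a ratio of means, Rora was 4.49-fold lower with IL-2, from 1226 ± 256 to 273 ± 41.4 reads. The genes Cxcr5 and St8sia1, described below, had too few reads for that rule. They were 6.53-fold and 6.58-fold lower with IL-2, beside 5.70-fold for Ttn.

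No other sarcomere gene tested in the main fit fell. Of 63 listed genes of the Z-disc, thick filament, M-band and thin filament, 29 had 0 reads in all 8 libraries and 49 had fewer than 10 reads in every library. A mean of at least 100 reads was reached by 5, namely Neb, Pdlim5, Tpm3, Tpm1 and Tmod1. Only 4 passed the filter on low values for the limma fit, and 2 of these, Neb and Tpm3, rose. The median difference of the 4 was 0.25, beside -0.01 over all tested genes, of which 16.8% rose and 14.6% fell.

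Among Z-disc proteins and ligands of the titin N-terminus, Neb stood out. Neb had 4869, 4083, 6369 and 4607 reads in controls 45 to 48 and 6689, 5998, 7636 and 7074 in IL-2 libraries 41 to 44. The groups overlapped in 1 place, where control 47 exceeded IL-2 library 42. Neb rose from 4982 ± 981 to 6849 ± 688 reads, 1.37-fold (limma log2 difference 0.42 ± 0.10 SE, adjusted p = 0.00931). Per kb of its longest transcript of 22489 bases it had 222 ± 43.6 reads in controls and 305 ± 30.6 with IL-2, in both groups above Ttn on the same scale. The ratio of Ttn to Neb reads in the same library was 2.66 to 3.35 in controls and 0.234 to 0.518 with IL-2.

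Most partners of titin at the Z-disc were hardly measured. Tcap, the telethonin gene whose product caps the titin N-terminus, and Des, the desmin gene, had 0 reads in all 8 libraries. Actn2, the sarcomeric alpha-actinin that binds titin repeats, had 30.2 ± 16.1 reads in controls and 18.5 ± 12.0 with IL-2, with overlapping groups. Pdlim5, a PDZ and LIM domain adaptor, had 327 ± 55.6 and 387 ± 50.6 (limma adjusted p = 0.238). Fhl2, a LIM protein that binds titin in heart muscle, had 14.5 ± 6.77 and 61.9 ± 29.4 reads. It was too low for the main filter but rose in the fit on log2 of normalised reads plus 5 (limma log2 difference 1.75, adjusted p = 0.00784), a fit of 10777 genes of which 19.9% passed. In that fit 9 sarcomere genes were tested, of which 3 rose and 0 fell, where 10.9% of all genes of that fit rose and 9.07% fell. Nebl, of the same Z-disc list, came near the threshold as a fall there (limma log2 difference -1.53, adjusted p = 0.0552). It had 34.9 ± 14.8 reads in controls and 10.1 ± 10.7 with IL-2, with overlapping groups.

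Thick filament and M-band genes were absent or near the floor, and none of the 24 passed the filter in either fit. Myh3, the embryonic myosin heavy chain, had 2.72, 7.33, 41.8 and 52.5 reads in controls 45 to 48 and at most 6.11 in any IL-2 library. The groups overlapped, and controls 47 and 48 held most of its reads.

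Of the thin filament genes, Tpm3, a tropomyosin that is also made outside muscle, rose from 3746 ± 266 to 5136 ± 227 reads (limma log2 difference 0.39 ± 0.06 SE, adjusted p = 3.37e-04), with groups that did not overlap. Tpm1 had 349 ± 19.99 reads in controls and 373 ± 81.7 with IL-2 (adjusted p = 0.731). Tmod1, which caps the pointed end of actin filaments, had 137 ± 9.33 and 149 ± 22.4. The cardiac troponin gene Tnnt2 had 9.08 to 19.9 reads in controls and 2.31 or fewer with IL-2. It was too low for both of these fits and fell in a fit without a filter (limma adjusted p = 0.00135).

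**Figure D2:**
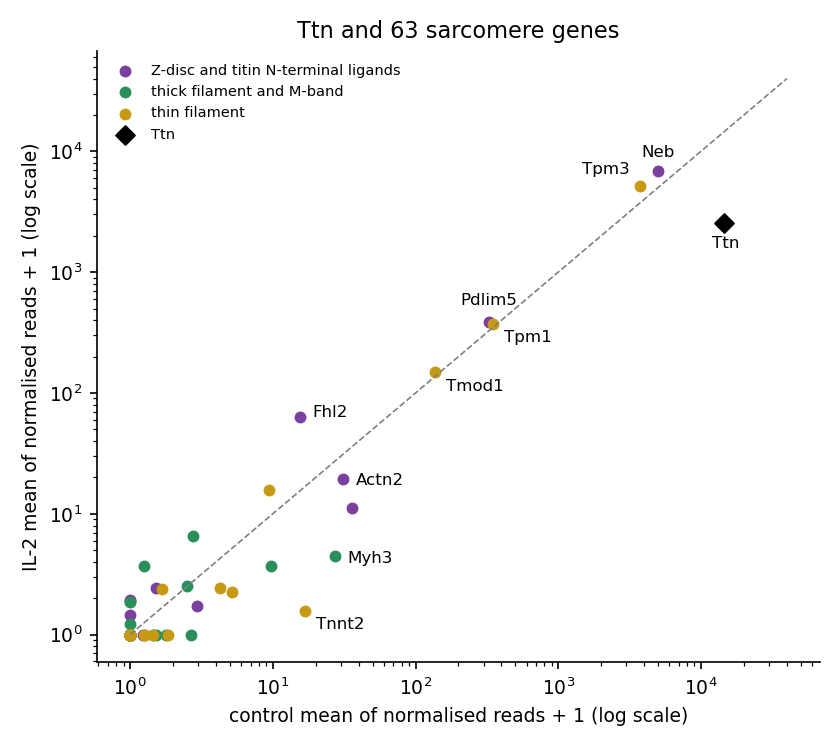
Mean normalised reads plus 1 in controls (x axis) and with IL-2 (y axis), both on log scales, for Ttn and 63 sarcomere genes coloured by their place in the sarcomere. The dashed line marks equal means. Ttn lies below the line at 14578 and 2557 reads, while Neb and Tpm3 lie above it and most other genes sit at the lower left.

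The defining markers of striated muscle cells were at or near 0 in the same libraries. Of 18 such markers, 11 had 0 reads in all 8 libraries, among them Actc1, Mb, Myh6, Myod1, Myog and Des. Their summed reads ran from 20.2 to 47.3 in controls and from 3.26 to 33.2 with IL-2 (two-sided exact permutation p = 0.171, adjusted over 7 marker lists 0.20).

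Markers of other cell types moved with the groups. B cell markers summed to 465 ± 43.1 reads in controls (405 to 507) and 158 ± 43.5 with IL-2 (110 to 215), most of it Cd74. Over the 8 libraries 8 of the 10 had a mean under 10 reads, Ms4a1 and Pax5 among them. Monocyte, macrophage and dendritic cell markers summed to 1787 ± 126 (1646 to 1905) and 948 ± 95.5 (843 to 1069), most of it the protease gene Ctss, with 9 of 12 under 10 reads, Adgre1 and Itgax among them. CD8 T cell and NK cell markers summed to 236 ± 35.8 (199 to 278) and 163 ± 33.1 (128 to 195), with 3 of 8 under 10 reads, Ncr1 among them. Smooth muscle and stromal markers summed to 1387 ± 111 (1274 to 1540) and 1081 ± 85.4 (991 to 1190), nearly all of it Pecam1, with 10 of 12 under 10 reads. Each of these 4 lists had a two-sided exact permutation p = 0.0286, the smallest that 70 splits allow, and 0.04 after adjustment. That value is reached when groups do not overlap, as in 31.5% of single tested genes. The 9 genes of the Treg marker list summed to more with IL-2, at 46529 ± 2394 against 35706 ± 589, with the same p-values. Il2ra alone carried the gain, from 6935 ± 781 to 18107 ± 1601 (limma adjusted p = 3.11e-07). Tnfrsf18, a receptor of the tumour necrosis factor family, also rose (adjusted p = 3.00e-04), while Cd4 fell from 4136 ± 300 to 2523 ± 354 (adjusted p = 1.49e-04). The other 6 did not pass, Foxp3 among them (adjusted p = 0.115). Erythroid and platelet markers summed to 42.9 ± 46.9 in controls and 14.2 ± 19.9 with IL-2 (exact permutation p = 0.286). The part of these markers' cells in the difference of Ttn was not tested.

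Genes of titin-bound signalling, turnover and splicing gave 1 rise and 1 fall among 9 tested of 23 listed, with a median difference of -0.05. That share of called genes was below the 31.4% called over all tested genes. In the fit on log2 of normalised reads plus 5, 14 were tested, of which Hsp90aa1 and Smyd2 rose and 0 fell. Over all genes of that fit 10.9% rose and 9.07% fell. Smyd2 had 48.9 ± 15.6 reads in controls and 99.0 ± 11.7 with IL-2 (limma adjusted p = 0.0244 in that fit). Hsp90aa1, a chaperone that takes part in myosin folding, rose from 2708 ± 222 to 3811 ± 377 reads (limma adjusted p = 0.00101). Nbr1, the autophagy receptor that binds the titin kinase, had 655, 920, 1045 and 910 reads in controls 45 to 48 and 708, 582, 644 and 735 in IL-2 libraries 41 to 44, and fell (adjusted p = 0.0467). That call was lost when any 1 of control libraries 46, 47 and 48 or IL-2 libraries 41, 42 and 43 was left out, with adjusted p up to 0.133 without control library 47, and on log2 of normalised reads plus 5 (0.0687). The kinase gene Prkca and the splicing regulator Ptbp1 did not pass (adjusted p = 0.687 and 0.282). Rbm20, the main splicing factor of titin in heart, and the muscle ubiquitin ligases Trim63 and Trim55 were too low for either fit.

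Of 17 tested non-muscle counterparts of sarcomere proteins, 8 rose, 1 fell and 8 did not pass, with a median difference of 0.12, beside 16.8% rising and 14.6% falling of all tested genes. Actg1, the cytoplasmic gamma-actin, went from 6933 ± 511 to 10504 ± 834 reads (limma adjusted p = 8.15e-05). Zyx, the zyxin of focal adhesions, rose 1.89-fold (adjusted p = 2.84e-04), Tpm4, a cytoskeletal tropomyosin, 1.40-fold (adjusted p = 0.00147) and Myl6, a myosin light chain, 1.31-fold (adjusted p = 7.50e-04). Actb, the cytoplasmic beta-actin, rose 1.22-fold (adjusted p = 0.00235) and Flna, an actin crosslinker, 1.26-fold (adjusted p = 0.00504). Under quantile normalization Flna did not pass (adjusted p = 0.151). Actb had a difference of 0 there, which that scaling forces on a gene of the same rank in every library. It is therefore no check of the rise of Actb. Without a filter Actb did not pass (adjusted p = 0.0683). Myh9, the main non-muscle myosin heavy chain of T cells, stood at 27075 ± 2666 and 26782 ± 1744 (adjusted p = 0.919), and Tln1, the gene of talin, did not pass either (adjusted p = 0.239).

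The 1 counterpart that fell was Actn1, the non-muscle alpha-actinin. It had 990, 1166, 1121 and 1073 reads in controls 45 to 48 and 484, 518, 433 and 266 in IL-2 libraries 41 to 44, without overlap. The ratio of means was 2.56 (limma log2 difference -0.74 ± 0.08 SE, adjusted p = 3.37e-05). Library 44 was the lowest of the 8 for Actn1, as it was for Ttn.

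Genes of other giant proteins were listed because long transcripts share with Ttn any dependence on length. Of 34 tested, 15 fell and 5 rose, with a median difference of -0.11, beside 14.6% falling and 16.8% rising of all tested genes. On the deposited scale Dst fell most. It encodes a spectraplakin that links actin and microtubules and went from 4297 ± 416 to 2419 ± 465 reads (limma log2 difference -0.68 ± 0.10 SE, adjusted p = 2.39e-04). Utrn, the non-muscle relative of dystrophin, fell from 17070 ± 678 to 12469 ± 459 (adjusted p = 7.25e-05). Macf1, the close relative of Dst with a transcript of 23495 bases, had 13459 ± 246 and 12122 ± 995 reads (adjusted p = 0.0911, and 0.0106 under quantile normalization).

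Giant genes also rose, and all 5 of these are named here, beside only Dst, Utrn and Syne1 of the 15 that fell. The nesprin genes, whose products tie the nucleus to the cytoskeleton, went both ways: Syne1 fell from 1353 ± 84.4 to 801 ± 113 reads (limma adjusted p = 1.44e-04), while Syne2 rose from 474 ± 30.1 to 1038 ± 50.9 (adjusted p = 2.46e-06) and Syne3 from 546 ± 42.0 to 1304 ± 93.3 (adjusted p = 1.39e-06). Ahnak, a membrane scaffold, rose 1.47-fold (adjusted p = 6.10e-04, and 0.126 under quantile normalization) and Plec, the plectin gene, 1.44-fold (adjusted p = 3.00e-04). Dnah7a, an axonemal dynein heavy chain, went from 104 ± 46.2 to 2044 ± 264 (adjusted p = 1.02e-08). Its control libraries all lay below the 206 reads of the filter, so it entered that fit through the IL-2 group alone. In the fit on log2 of normalised reads plus 5, with a filter of 10 reads, it also rose (limma adjusted p = 4.64e-07). Among the longest transcripts on the list, those of Syne1 (27908 bases) and Dst fell, that of Syne2 (21704 bases) rose and that of Macf1 did not pass.

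Differences varied with transcript length across the tested genes other than Ttn. The median difference was 0.10 for 600 genes whose longest transcript was at most 2000 bases, of which 35.5% rose and 6.67% fell. It was 0.01 for 1848 genes of over 2000 to 4000 bases and -0.04 for 2165 genes of over 4000 to 8000 bases. For 443 genes of over 8000 to 15000 bases it was -0.09, with 10.4% rising and 29.3% falling. For 36 genes over 15000 bases it was -0.08, with 6 rising and 11 falling. On the same scale Ttn differed by -2.22. The part of transcript length in the difference of Ttn was not tested.

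**Figure D3:**
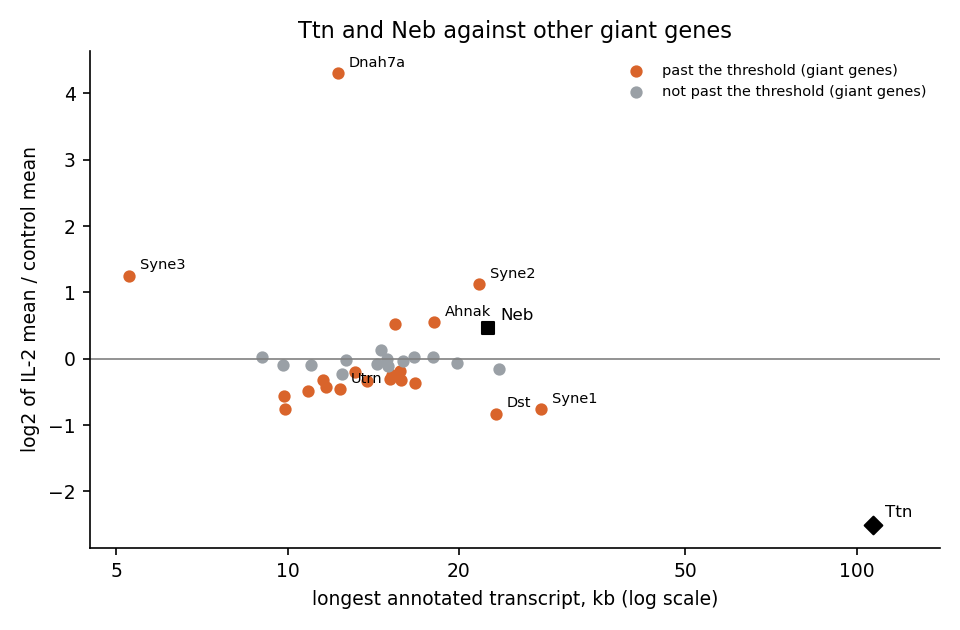
Log2 of the ratio of IL-2 to control mean reads (y axis) against the longest annotated transcript in kb (x axis, log scale) for Ttn (diamond), Neb (square) and 34 tested genes of other giant proteins, in orange where the limma adjusted p was below 0.05. The 34 genes lie on both sides of 0, 15 of them fell and 5 rose, and Ttn lies below all of them at the far right with 106824 bases.

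The genes whose values followed Ttn most closely over the 8 libraries were found by the root mean square difference from Ttn of log2 of normalised reads plus 5, each gene set to 0 at its control mean. A value of 0 would mean the same fold in every library. The nearest was Cxcr5, the chemokine receptor that guides cells into B cell follicles, at 0.28. Next came Gm10340 (0.34), Cd74 (0.34), which encodes the invariant chain of MHC class II, Gm3739 (0.35), St8sia1, a sialyltransferase that makes gangliosides (0.37), and Gm3095 (0.43). The 3 Gm genes are predicted genes, and reads of predicted genes can be shared with near-identical copies. In all, 9 of the tested genes lay within 0.5 of Ttn. That count covers only genes past the filter on low values, which asks for 206 reads in at least 4 libraries. Cxcr5, Gm10340, Cd74, Gm3739 and St8sia1 had fewer in every IL-2 library and so passed through the controls alone. No listed sarcomere gene was among the 6, but only 4 of the 63 were among the genes searched, and none of these fell.

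Cxcr5 had 821, 492, 576 and 632 reads in controls 45 to 48 and 89.6, 156, 91.6 and 49.3 in IL-2 libraries 41 to 44. As with Ttn, library 44 was the lowest, library 42 the highest of the IL-2 group and library 46 the lowest of the controls. St8sia1 had 381, 465, 393 and 358 reads in controls and 86.3, 61.5, 69.6 and 25.5 with IL-2. Library 44 was the lowest IL-2 library for each of the 6 genes. The 6 were picked for likeness to Ttn over these same libraries. That choice favours a shared order of libraries, so nothing is read from it. Among all 766 genes other than Ttn that fell, it was the lowest for 249 (32.5%).

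**Figure D4:**
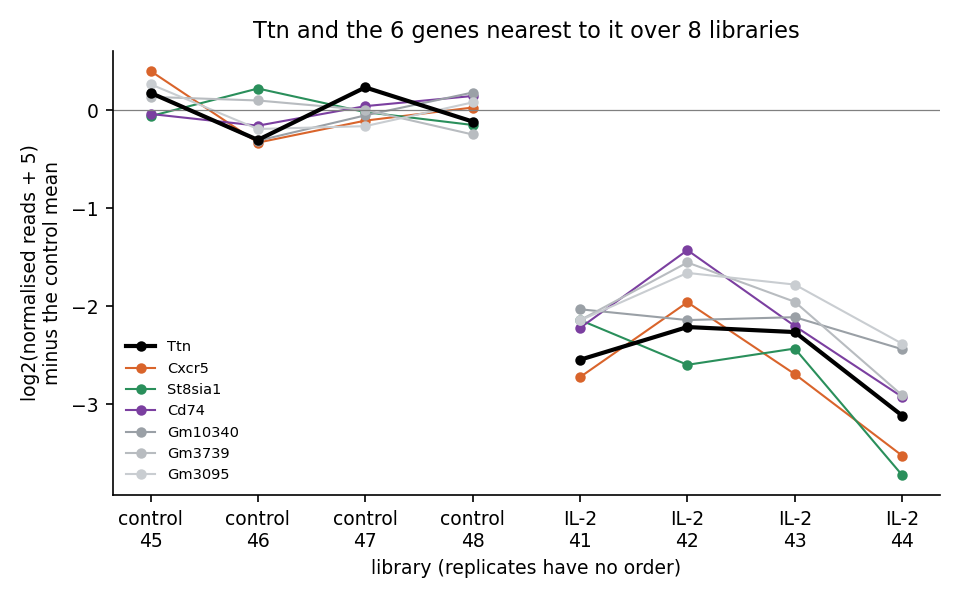
Log2 of normalised reads plus 5 minus the gene's own control mean (y axis) in each library (x axis) for Ttn, in black, and the 6 tested genes nearest to it. Lines only join the values of 1 gene within a group. All 7 genes lie below 0 in the 4 IL-2 libraries and lowest in library 44, a likeness for which the 6 were picked.

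Genes next to Ttn in the RefSeq annotation of GRCm38.p6 were at low levels. Of the 5 annotated on each side, 5 are in the table, namely Pjvk, Fkbp7, Plekha3, Ccdc141 and Sestd1, and the rest were not analysed here. Plekha3, a phosphoinositide-binding protein, had 164, 259, 235 and 240 reads in controls 45 to 48 and 175, 193, 201 and 91.5 in IL-2 libraries 41 to 44. The groups overlapped and it did not pass in the fit on log2 of normalised reads plus 5 (limma adjusted p = 0.215). Ccdc141, which lies on the side of the Ttn start, had 22.4 ± 16.6 and 8.40 ± 7.67 reads (adjusted p = 0.310 in the same fit). Pjvk had 0 reads in all libraries, and Fkbp7 and Sestd1 had means under 15 in both groups.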

How the data were processed

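Total RNA of sorted spleen Tregs was made into stranded libraries with a low-input kit, per the labels' protocols. The authors deposited 1 table of variance-stabilised log2 values for 8 libraries, and columns were matched to samples by library number. The submitters' processing notes name Salmon, DESeq2 and the build GRCm39. Annotation, filters, strand setting and any correction for transcript length: not given in the sources used here.

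A shared lowest value of 8.69 stands for 0 reads. Normalised reads were recovered by inverting the parametric variance-stabilising formula, checked on 40 common low values, of which 40 were whole multiples of 1 read within 0.001. The lowest value taken in each library set the unit of 1 read, so that value could not fail. A value 1 above the lowest equals 206 reads, so differences on this scale understate folds. Depth limits genes of few reads.

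Genes with at least 4 libraries 1 above the lowest were fitted with limma 3.58.1 (trend, no covariates, R 4.3.3), with Benjamini-Hochberg adjustment over 5261 genes. The step was tested on simulated data. Marker sums had two-sided exact permutation tests over 70 splits. Lengths are the longest GENCODE M21 transcript, matched by symbol for 19380 of 21524 genes. Figures used matplotlib 3.10.9.

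Ttn and the lists were chosen with earlier results of these data known. Named genes were up to 6 called and 3 further abundant members per list, the next 3 falls, the 6 nearest genes, chromosomal and rank neighbours. Some genes under this rule are not reported here. Tnnt2, Nebl, Smyd2, Rbm20, Trim63, Trim55, Tcap, Des, Noct, Il2ra and the marker genes named were added after their values were seen. The length classes, the comparison with other genes' replicate spread, the count of genes lowest in 1 library, the Ttn to Neb ratio and the motif search were also chosen after values were seen. Alternatives were no filter, a stricter filter, 2 scalings, 3 variance settings, 2 log2 scales, Ddx3y as a covariate and leaving out each library.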

Additional observations from a re-analysis of the deposited data

Results flagged for a closer look

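In 99 groups of 4 libraries checked for the named genes with a library of at least 100 reads, 4 held a library set apart from the other 3 by Dixon's criterion, where chance gives about 1 in 20. Tpm3 was low in IL-2 library 44, at 4799 normalised reads against 5209 to 5289 in the others. It was also low in control library 45, at 3347 against 3875 to 3886. Zyx was low in IL-2 library 44, at 787 against 873 to 889. Macf1 was low in IL-2 library 41, at 10637 against 12478 to 12704. No library of Ttn was set apart in this way.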

How the results depend on the processing

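The difference of Ttn, -2.22 on the deposited scale, became -2.53 on log2 of normalised reads plus 5, -2.54 with plus 1 and -2.58 on log2 of reads scaled to the library total, since the deposited scale is compressed. The stricter filter left 1519 genes, of which 737 passed. Without a filter, 4 sarcomere genes passed, Tnnt2 as a fall. The titin signalling count of 2 became 1 with the Ddx3y covariate and with the stricter filter, and was 1 to 2 over the fits that leave out a library, always by the loss of Nbr1. Of 711 refits of 40 named genes, 680 kept direction and side of the threshold, 23 lost and 1 gained a call, and 7 turned sign. The lost calls include Actb under quantile normalization, where that scaling fixed its value. The 7 that turned sign were of genes that did not pass: Myh9, with differences from -0.055 to 0.035 over the fits that leave out a library (above 0 without control 47 or 48 or IL-2 44), Prkca from -0.119 to 0.0037 (above 0 without IL-2 43), Tpm1 from -0.028 to 0.071 (below 0 without IL-2 44), and Prrc2c and Tln1 at -0.039 and -0.063 under quantile normalization. Beside Nbr1, Wapl was also lost in 9 refits. Neb passed in all 18 alternatives, with adjusted p from 8.43e-04 to 0.0411. No paired analysis was possible because the groups share no replicate numbers.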

Other observations

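The Y-linked transcript Ddx3y was present in some libraries of both groups and absent from others. Ttn had 1658 and 2999 normalised reads in the 2 IL-2 libraries with Ddx3y and 2464 and 3108 in the 2 without it. In controls it had 11697 to 16967 reads in the 3 libraries with Ddx3y and 16327 in the 1 without it. Ttn was lower with IL-2 both among libraries with Ddx3y and among those without. Every control library lay above every IL-2 library, so any split would give this and nothing is read from it.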
